A study of Homo sapiens with 4 samples.

Results

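The genes of the cyclin-CDK step that takes a cell out of G1 were examined in Ishikawa and HEC-1A cells given an siRNA against Efp. The 10 genes were the kinases CDK6, CDK4 and CDK2, the D-type cyclins CCND1, CCND2 and CCND3, the E-type cyclins CCNE1 and CCNE2, the pocket protein gene RB1, and the transcription factor gene E2F1. They were listed for their place in this step, and CDK6 was chosen by its signal, which was at least 2-fold lower with the Efp siRNA in both lines, so its siEfp difference is a description without a test. All 10 had a probe set of their own, among 18417 genes measured. There were 4 arrays, 1 for each of Ishikawa cells with siEfp, Ishikawa cells with siControl, HEC-1A cells with siEfp and HEC-1A cells with siControl. Efp is the ubiquitin ligase encoded by TRIM25, and siControl is a control duplex. Ishikawa cells carry estrogen receptor α and come from a well-differentiated adenocarcinoma of the endometrium, whereas HEC-1A cells lack this receptor and come from a moderately differentiated one. The study's methods describe the duplex called siEfp #A for the Ishikawa arrays, and for the HEC-1A arrays neither the duplex nor the time of RNA collection is given in the sources used here.

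In G1, CDK4 and CDK6 are close relatives that bind a D-type cyclin and begin to phosphorylate the RB protein. Phosphorylated RB lets go of E2F factors, which switch on genes for DNA replication and for the E-type cyclins. E-type cyclins then activate CDK2 and drive the cell into S phase. The study followed the growth and the cell cycle of these cells after Efp silencing, and the arrays show the mRNA side of that question.

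The siRNA target was lower in both siEfp arrays. TRIM25 had log2 signals of 7.96 in Ishikawa siEfp cells against 9.42 in Ishikawa siControl cells, and of 7.93 in HEC-1A siEfp cells against 9.50 in HEC-1A siControl cells. The joint limma fit described below gave a difference of -1.52 ± 0.12 (SE, adjusted p = 0.0342). Over the alternatives the adjusted p ran from 8.37e-05 to 1, and the call was lost after a further quantile normalization (0.0708) and with cell line left out of the model (1). SFN, the gene of 14-3-3σ, an Efp substrate, was higher by 0.31 in Ishikawa cells and by 0.43 in HEC-1A cells (adjusted p = 0.319). The 2 arrays of a line correlated at 0.992 in Ishikawa and 0.993 in HEC-1A, and arrays of different lines at 0.956 to 0.958. KRT8 and KRT18, keratins of simple epithelia, lay between 10.85 and 12.44 on all 4 arrays. CDH1, the epithelial cadherin, had 9.62 in Ishikawa siEfp cells and 10.22 in Ishikawa siControl cells, but only 3.74 in HEC-1A siEfp cells and 4.07 in HEC-1A siControl cells. ESR1, the estrogen receptor α gene, had 6.65 in Ishikawa siEfp cells and 6.91 in Ishikawa siControl cells, and 4.77 in HEC-1A siEfp cells and 4.45 in HEC-1A siControl cells. Markers of other cell types ran from 2.79 to 7.40 over the 6 fibroblast genes, from 3.14 to 5.21 over the 4 endothelial genes and from 2.90 to 7.26 over the 4 immune genes measured. The brightest were COL1A1, a collagen gene, at 6.37 to 7.40, and CD68, a macrophage marker, at 5.58 to 7.26, while PTPRC, PECAM1, DCN and LUM lay between 2.79 and 3.32. The siEfp arrays were lower than the siControl arrays for 5 of 5 epithelial markers in both lines, against 26.7% of all genes. Some of these differences were close to none, at -0.0027 for EPCAM in Ishikawa and -0.0385 for KRT18 in HEC-1A. The summed linear signal of the 5 epithelial markers was 12144 in Ishikawa siEfp cells against 14105 in Ishikawa siControl cells. In HEC-1A the sum was 5791 in siEfp cells against 6828 in siControl cells, and its part in the results below was not tested.

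CDK6 was the one kinase of the step with a large difference. The log2 signal of its probe set (8140955) was 5.55 in Ishikawa siEfp cells against 7.32 in Ishikawa siControl cells. In HEC-1A cells it was 4.63 with siEfp against 5.70 with siControl. The siEfp array was the lower of the pair in both lines, by 1.77 on the log2 scale or 3.40-fold in Ishikawa and by 1.07 or 2.11-fold in HEC-1A. The Ishikawa difference minus the HEC-1A difference was -0.69, which cannot be tested with 1 array per condition. In RNA from a whole culture, fewer cells with CDK6 mRNA and less CDK6 mRNA per cell cannot be told apart. CDK6 had the 7th lowest siEfp difference of 18417 genes in Ishikawa and the 40th lowest in HEC-1A. These are the values on which CDK6 was chosen. In Ishikawa 0.804% of all genes were at least 2-fold lower with siEfp and 0.136% at least 2-fold higher. In HEC-1A the share of genes lower by this much was 0.271%, and the share higher was 0.103%.

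The HEC-1A difference put CDK6 close to the limit of 2-fold. Of 32 genes that passed the limit in both lines, CDK6 was 25th when ordered by the smaller of the 2 falls. Just inside the limit lay IL6ST, at -1.63 in Ishikawa and -1.01 in HEC-1A, and just outside lay RAB3B, at -1.30 in Ishikawa and -0.98 in HEC-1A. The signal of CDK6 was also low in HEC-1A. Its mean over the HEC-1A arrays was 5.17, below the 6.26 of the median gene, while in Ishikawa the mean was 6.43 against 6.35 for the median gene. On the HEC-1A siEfp array, 28.1% of all genes had a lower signal than CDK6.

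CDK4, the close relative of CDK6, did not share the difference. CDK4 had log2 signals of 11.63 in Ishikawa siEfp cells and 11.35 in Ishikawa siControl cells, and of 11.74 in HEC-1A siEfp cells and 11.52 in HEC-1A siControl cells. Both siEfp arrays were above both siControl arrays, an order whose share among all genes was not counted. Within a line the siEfp signal was 0.28 higher in Ishikawa and 0.23 higher in HEC-1A. CDK2, the partner of E-type cyclins, had 9.28 in Ishikawa siEfp cells against 9.23 in Ishikawa siControl cells, and 9.29 in HEC-1A siEfp cells against 9.23 in HEC-1A siControl cells. Its differences were 0.05 in Ishikawa and 0.06 in HEC-1A. The CDK6 difference minus the CDK4 difference was -2.05 in Ishikawa and -1.30 in HEC-1A, and minus the CDK2 difference it was -1.81 in Ishikawa and -1.14 in HEC-1A. The same probe sets enter each pair of arrays, so these contrasts set changes side by side and not levels.

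The promoter windows of both kinases are shown because CDK6 and CDK4 differed under siEfp, and they were set against the binding words of E2F factors and of MYC-type E-box factors. The windows are the 250 bases before a RefSeq start in GRCh38.p14, which held windows for 6 of the 10 genes. The E2F words searched were TTTCGCGC, TTTGGCGC, TTTCCCGC and TTTGCCGC on both strands, and the E-box word was CACGTG, which reads the same on both strands. Of 35116 windows of this length, 2.79% held an E2F word and 6.34% held the E-box word. Capitals mark a match. The window of CDK6 is at chr7:92836574-92836823 on the minus strand, and that of CDK4 is at chr12:57752311-57752560 on the minus strand.
CDK6: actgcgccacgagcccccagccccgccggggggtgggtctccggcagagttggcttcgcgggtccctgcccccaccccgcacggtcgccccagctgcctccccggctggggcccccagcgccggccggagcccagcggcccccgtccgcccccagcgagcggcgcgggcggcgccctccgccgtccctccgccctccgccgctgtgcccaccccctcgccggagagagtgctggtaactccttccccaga
CDK4: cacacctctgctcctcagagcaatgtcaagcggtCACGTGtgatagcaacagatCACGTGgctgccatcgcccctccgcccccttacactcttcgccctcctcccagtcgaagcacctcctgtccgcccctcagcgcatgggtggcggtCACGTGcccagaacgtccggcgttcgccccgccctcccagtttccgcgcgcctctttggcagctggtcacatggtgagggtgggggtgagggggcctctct
The CDK6 window was 80.0% G and C and held no match to either motif, and neither did the window of a second CDK6 start at chr7:92833960-92834209. The CDK4 window was 65.6% G and C and held the E-box word 3 times, which 0.0797% of all windows did. It held no E2F word. A match is a description of the letters and says nothing of binding in these cells.

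**Figure D1:**
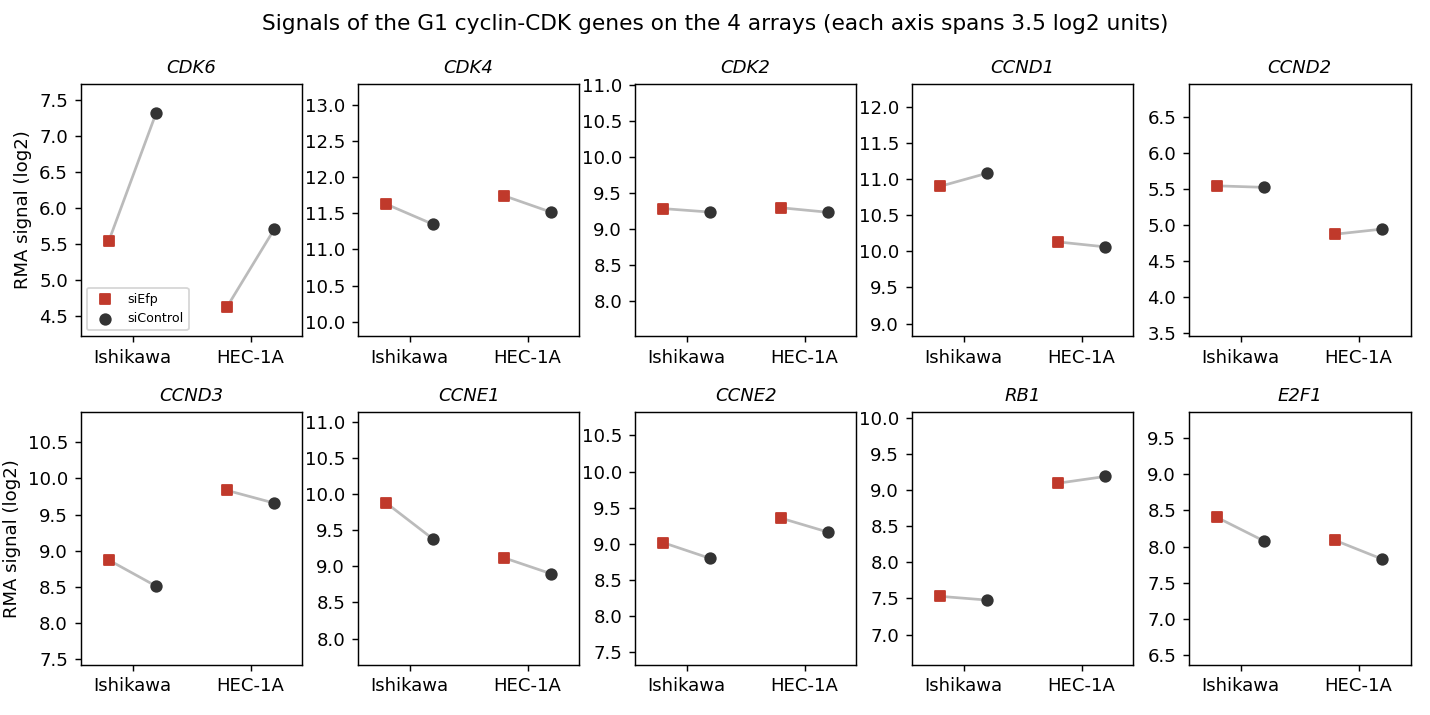
Log2 signal (vertical axis) of each of the 10 genes on the 4 arrays, with siEfp to the left of siControl in each line. The CDK6 points are at 5.55 (siEfp) and 7.32 (siControl) in Ishikawa and at 4.63 (siEfp) and 5.70 (siControl) in HEC-1A, while the pairs of the other 9 genes differ by at most 0.50.

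The D-type cyclins, the partners of CDK4 and CDK6, had small differences of mixed sign. CCND1, the cyclin D1 gene, had log2 signals of 10.90 in Ishikawa siEfp cells and 11.08 in Ishikawa siControl cells, and of 10.13 in HEC-1A siEfp cells and 10.06 in HEC-1A siControl cells. The siEfp array was the lower one in Ishikawa, by 0.18, and the higher one in HEC-1A, by 0.07. CCND2, the cyclin D2 gene, had 5.54 in Ishikawa siEfp cells against 5.52 in Ishikawa siControl cells, and 4.87 in HEC-1A siEfp cells against 4.94 in HEC-1A siControl cells. Its differences were 0.02 in Ishikawa and -0.07 in HEC-1A, on signals below the median gene in both lines. CCND3, the cyclin D3 gene, had 8.87 in Ishikawa siEfp cells against 8.51 in Ishikawa siControl cells, and 9.83 in HEC-1A siEfp cells against 9.66 in HEC-1A siControl cells. The siEfp array was the higher one in both lines, by 0.36 in Ishikawa and 0.18 in HEC-1A. The CCND3 difference was above that of CCND1 by 0.54 in Ishikawa and 0.11 in HEC-1A.

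Both E-type cyclins had higher signals in the siEfp arrays. CCNE1, the cyclin E1 gene, had log2 signals of 9.88 in Ishikawa siEfp cells and 9.38 in Ishikawa siControl cells, and of 9.12 in HEC-1A siEfp cells and 8.90 in HEC-1A siControl cells. The siEfp signal was higher by 0.50 or 1.42-fold in Ishikawa and by 0.22 or 1.17-fold in HEC-1A, and the Ishikawa difference was the highest among the 10 genes in that line. CCNE2, the cyclin E2 gene, had 9.02 in Ishikawa siEfp cells against 8.80 in Ishikawa siControl cells, and 9.36 in HEC-1A siEfp cells against 9.16 in HEC-1A siControl cells. Its differences were 0.22 in Ishikawa and 0.19 in HEC-1A. The siEfp array was above the siControl array of its own line for both cyclins, but the signals of the lines did not lie in the same order: for CCNE1 the HEC-1A siEfp signal was below the Ishikawa siControl signal.

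RB1 encodes the brake of this step and E2F1 a factor that the brake holds. RB1 had log2 signals of 7.53 in Ishikawa siEfp cells and 7.48 in Ishikawa siControl cells, and of 9.09 in HEC-1A siEfp cells and 9.19 in HEC-1A siControl cells. With siEfp the signal was thus 0.05 higher in Ishikawa, and the HEC-1A difference was -0.09. E2F1 had 8.40 in Ishikawa siEfp cells against 8.08 in Ishikawa siControl cells, and 8.09 in HEC-1A siEfp cells against 7.83 in HEC-1A siControl cells. Its siEfp signal was higher by 0.33 within Ishikawa and by 0.26 within HEC-1A. Both siEfp arrays were above both siControl arrays, but only narrowly, with 8.086 in HEC-1A siEfp cells against 8.075 in Ishikawa siControl cells. How many of all genes had this order was not counted. The E2F1 promoter window is at chr20:33686386-33686635 on the minus strand. It is shown because, of the 9 windows available for 6 of the 10 genes, it alone held the E2F words searched, printed in capitals.
E2F1: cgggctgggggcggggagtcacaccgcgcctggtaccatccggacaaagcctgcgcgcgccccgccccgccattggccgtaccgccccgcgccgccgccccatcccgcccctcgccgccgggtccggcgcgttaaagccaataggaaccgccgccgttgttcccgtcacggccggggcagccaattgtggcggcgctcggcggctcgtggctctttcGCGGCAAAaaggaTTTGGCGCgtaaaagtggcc
It held 2 such matches, at 33 to 26 and at 20 to 13 bases before the start, the nearer one on the strand shown and the other on its reverse complement. Of all windows 0.122% held at least 2. The windows available for CCND3, CCNE1 and RB1 held no match to either motif. RB1 had 1 window, at chr13:48476200-48476449, which was 36.8% G and C. The other windows of these genes were at least 61.2% G and C. Whether the RB1 window lies before the main start of the gene was not checked, and any other start was not searched. The absence of a match therefore holds for this window only and not for the RB1 promoter as a whole.

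**Figure D2:**
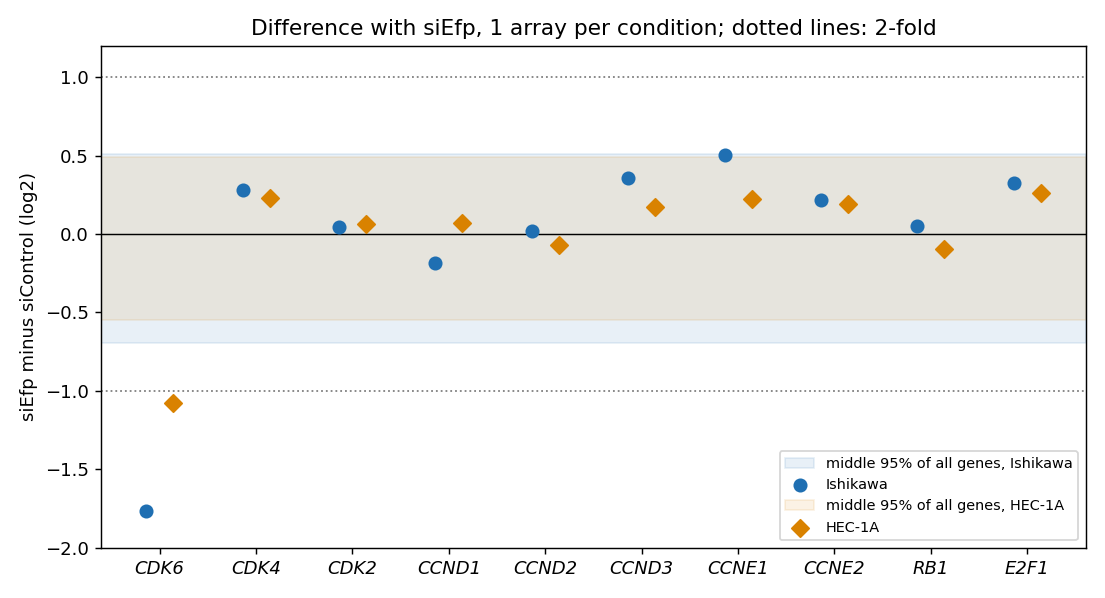
Difference in log2 signal, siEfp minus siControl, for each of the 10 genes in Ishikawa and in HEC-1A cells, with no error bar because each condition has 1 array, shaded bands for the middle 95% of all genes in each line and dotted lines at 2-fold. CDK6 is at -1.77 and -1.07, and the other 9 genes lie between -0.18 and 0.50 in Ishikawa and between -0.09 and 0.26 in HEC-1A.

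Without CDK6, the 9 other genes had a median siEfp difference of 0.22 in Ishikawa and 0.18 in HEC-1A, against 0.01 for all genes in each line. The middle 95% of all genes ran from -0.70 to 0.51 in Ishikawa and from -0.55 to 0.49 in HEC-1A, so none of the 9 lay outside it. CDK4, CDK2, CCND3, CCNE1, CCNE2 and E2F1 were higher in the siEfp array of both lines, which is 66.7% of the 9 genes against 31.1% of all genes. None of the 9 was lower in both lines, against 26.7% of all genes. The 9 genes were listed with earlier results of these arrays known, and these shares are given without a test.

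A joint test was made with limma, with cell line and siRNA as terms, which treats both lines as replicates of 1 siEfp effect. It called 0.157% of all genes lower and 0.00543% higher with siEfp at an adjusted p under 0.05. None of the 9 genes other than CDK6 was called, and 2 of them (CCNE1 and E2F1) had an unadjusted p under 0.05, as did 12.0% of all genes. CCNE1 had the highest estimate, 0.36 ± 0.13 (SE, adjusted p = 0.362). E2F1 had 0.29 ± 0.12 (adjusted p = 0.41), CCND3 0.27 ± 0.13 (adjusted p = 0.469) and CDK4 0.25 ± 0.12 (adjusted p = 0.473). CCNE2 had 0.21 ± 0.12 (adjusted p = 0.568), and the adjusted p values of CDK2, CCND1, CCND2 and RB1 were 0.908 to 0.974. Over the alternatives the adjusted p of CCNE1 ran from 0.13 to 1, and none of the 9 was called in any of them.

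The lines themselves differed clearly in these genes, and this comparison does not use the siEfp difference on which CDK6 was chosen. In the same limma fit, Ishikawa minus HEC-1A, 6 of the 10 genes were called, 4 higher and 2 lower in Ishikawa, where 17.0% of all genes were called higher and 18.3% lower. RB1 had the lowest estimate, -1.64 ± 0.12 on the log2 scale (SE, adjusted p = 0.000147). Ishikawa had the lower RB1 signal in the siEfp pair, by 2.96-fold, and in the siControl pair, by 3.28-fold. CCND3 was also lower in Ishikawa, at -1.06 ± 0.13 (adjusted p = 0.00102), with -0.97 in the siEfp pair and -1.15 in the siControl pair.

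Among the D-type cyclins the lines differed in opposite directions. CCND1 was higher in Ishikawa by 0.89 ± 0.13 (adjusted p = 0.0024) and CCND2 by 0.62 ± 0.12 (adjusted p = 0.008), both in each siRNA pair. CCNE1 was higher by 0.62 ± 0.13 (adjusted p = 0.0114), with 0.76 in the siEfp pair and 0.48 in the siControl pair, but its adjusted p was 0.0637 with siRNA left out of the model (range over the alternatives 0.00132 to 0.0637). CCNE2 was lower in Ishikawa at -0.35 ± 0.12 and missed the threshold (adjusted p = 0.0646), although it passed with an intensity trend (0.0314) and without dim genes (0.0266), within a range of 0.0266 to 0.133.

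CDK6 was higher in Ishikawa by 1.27 ± 0.18 (adjusted p = 0.00225). The difference was 0.92 in the siEfp pair and 1.61 in the siControl pair. The values of the lines overlapped, since the Ishikawa siEfp signal of 5.55 lay just below the HEC-1A siControl signal of 5.70. The adjusted p was 0.186 with siRNA left out of the model, the highest of a range that began at 0.00129. This range has no value from the fit without dim genes, which left CDK6 out. CDK4 had -0.14 (adjusted p = 0.439), CDK2 -0.00 (adjusted p = 0.985) and E2F1 0.28 (adjusted p = 0.123), which did not pass. The 2 arrays of a line carried different siRNAs, so the test rests on the siRNA effect being the same in both lines.

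**Figure D3:**
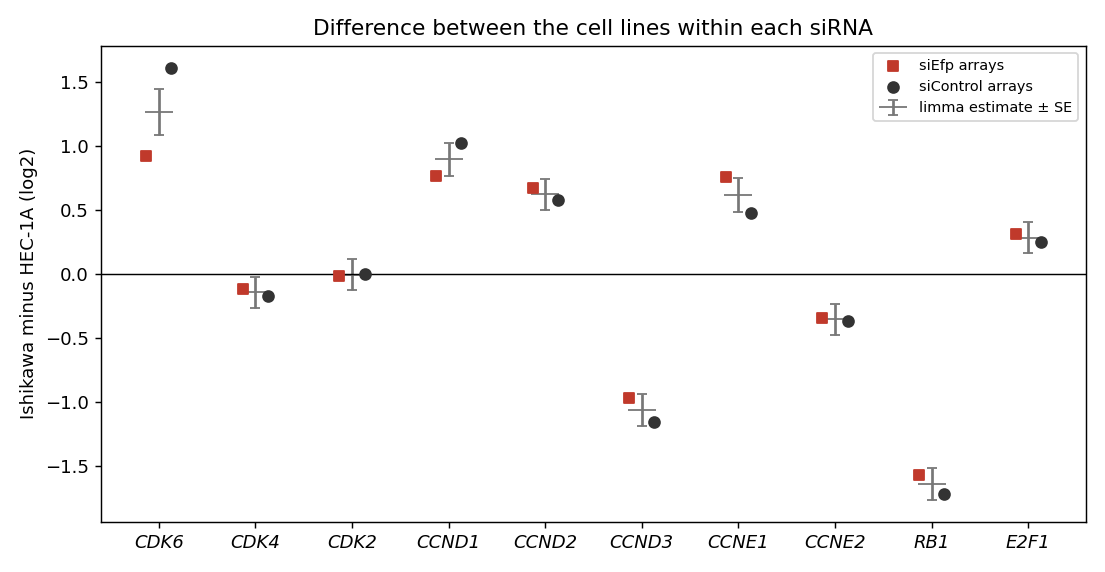
Difference in log2 signal, Ishikawa minus HEC-1A, for each of the 10 genes, in the siEfp pair and in the siControl pair of arrays, with the limma estimate and its SE in grey. RB1 and CCND3 lie below 0 and CDK6, CCND1, CCND2 and CCNE1 above 0 in both pairs, from -1.71 for RB1 to 1.61 for CDK6.

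The genes whose 4 signals were most like those of CDK6 were found by the Euclidean distance between centred log2 values over the 4 arrays, among genes with at least the median signal. P3H2, a collagen prolyl hydroxylase gene, was nearest, at a distance of 0.40, and its siEfp difference was -1.52 in Ishikawa and -0.61 in HEC-1A. THBS1, the thrombospondin 1 gene, followed at 0.48, with -1.29 in Ishikawa and -1.51 in HEC-1A. ERLIN2, PLCE1 and KRT80 followed at 0.56, 0.57 and 0.59. That all 5 were lower in the siEfp arrays follows from how they were chosen. None belongs to the cyclin-CDK families.

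The inhibitors of cyclin-CDK complexes did not move together. Of 7 inhibitor genes 6 were measured, and their median siEfp difference was 0.23 in Ishikawa and 0.03 in HEC-1A. CDKN1B, the p27 gene, had log2 signals of 9.47 in Ishikawa siEfp cells and 9.00 in Ishikawa siControl cells, and of 8.67 in HEC-1A siEfp cells and 8.22 in HEC-1A siControl cells. Its differences were alike, 0.48 in Ishikawa and 0.45 in HEC-1A (limma, adjusted p = 0.216). CDKN1A, the p21 gene, had 0.10 in Ishikawa and 0.00 in HEC-1A, and CDKN1C, the p57 gene, 0.36 in Ishikawa and -0.01 in HEC-1A. The inhibitors of the CDK4 and CDK6 class were of mixed sign. CDKN2A had -0.20 in Ishikawa and 0.39 in HEC-1A, CDKN2B -0.53 in Ishikawa and 0.05 in HEC-1A, and CDKN2D 0.39 in Ishikawa and -0.27 in HEC-1A.

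Ubiquitin ligase parts that turn over G1 cyclins and p27 showed 6 of 11 genes lower in both lines and 5 higher in both, against 26.7% and 31.1% of all genes. SKP2, the F-box protein that targets p27, had log2 signals of 10.03 in Ishikawa siEfp cells and 11.03 in Ishikawa siControl cells, and of 10.27 in HEC-1A siEfp cells and 10.63 in HEC-1A siControl cells. The siEfp signal was below that of siControl in both lines, more so in Ishikawa, and the limma estimate was -0.68 ± 0.17 (SE, adjusted p = 0.214). CUL3, a cullin scaffold, had -0.39 in Ishikawa and -0.34 in HEC-1A, and CKS2, a small CDK-binding protein, had 0.32 in Ishikawa and 0.34 in HEC-1A. The CDK activating kinase and the CDC25 phosphatases, with WEE1, had medians of -0.04 in Ishikawa and 0.17 in HEC-1A, with 2 of 7 higher and 0 of 7 lower in both lines.

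The other pocket proteins and the other E2F and DP factors had medians of -0.19 in Ishikawa and 0.19 in HEC-1A. Of these 11 genes, 5 (45.5%) were lower and 3 (27.3%) higher in both lines, against 26.7% and 31.1% of all genes. E2F2, an activator of the E2F1 type, had log2 signals of 6.37 in Ishikawa siEfp cells and 5.72 in Ishikawa siControl cells, and of 6.08 in HEC-1A siEfp cells and 5.60 in HEC-1A siControl cells (adjusted p = 0.178). Both siEfp arrays were above both siControl arrays, as they were for CDK4 and, narrowly, for E2F1, without a count of this order over all genes. RBL2, the p130 pocket protein gene, was at -0.41 in Ishikawa and -0.26 in HEC-1A.

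Of 22 measured genes that E2F factors switch on at the start of S phase, 11 were higher and 4 lower in both siEfp arrays. Among all genes, 31.1% were higher and 26.7% lower in both lines. The 22 genes had medians of 0.07 in Ishikawa and 0.19 in HEC-1A. MCM2, a subunit of the replicative helicase, was higher by 0.47 in Ishikawa and by 0.47 in HEC-1A (adjusted p = 0.214). MCM6, another subunit, had 0.35 in Ishikawa and 0.57 in HEC-1A (adjusted p = 0.24). CDC6, which loads the helicase, had -0.44 in Ishikawa and -0.31 in HEC-1A (adjusted p = 0.31), and ORC1, of the origin recognition complex, had -0.68 in Ishikawa and -0.05 in HEC-1A (adjusted p = 0.476).

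Over the inhibitor, turnover, activator, E2F, target and G2/M lists and the rest of the CDK and cyclin families, 89 genes were measured. Limma called 0 of these 89 in either direction, where 0.157% of all genes were called lower and 0.00543% higher. An unadjusted p under 0.05 was found for 17 of them, which is 19.1% against 12.0% of all genes. Leaving out dim genes, limma called SKP2 and CCNY lower and CDKN1B, MCM2 and CDK19 higher among the 85 that remained, which is 2 lower and 3 higher where 4.96% of all genes kept were called lower and 1.72% higher. With an intensity trend it called CDK19 higher, where 0.163% of all genes were.

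**Figure D4:**
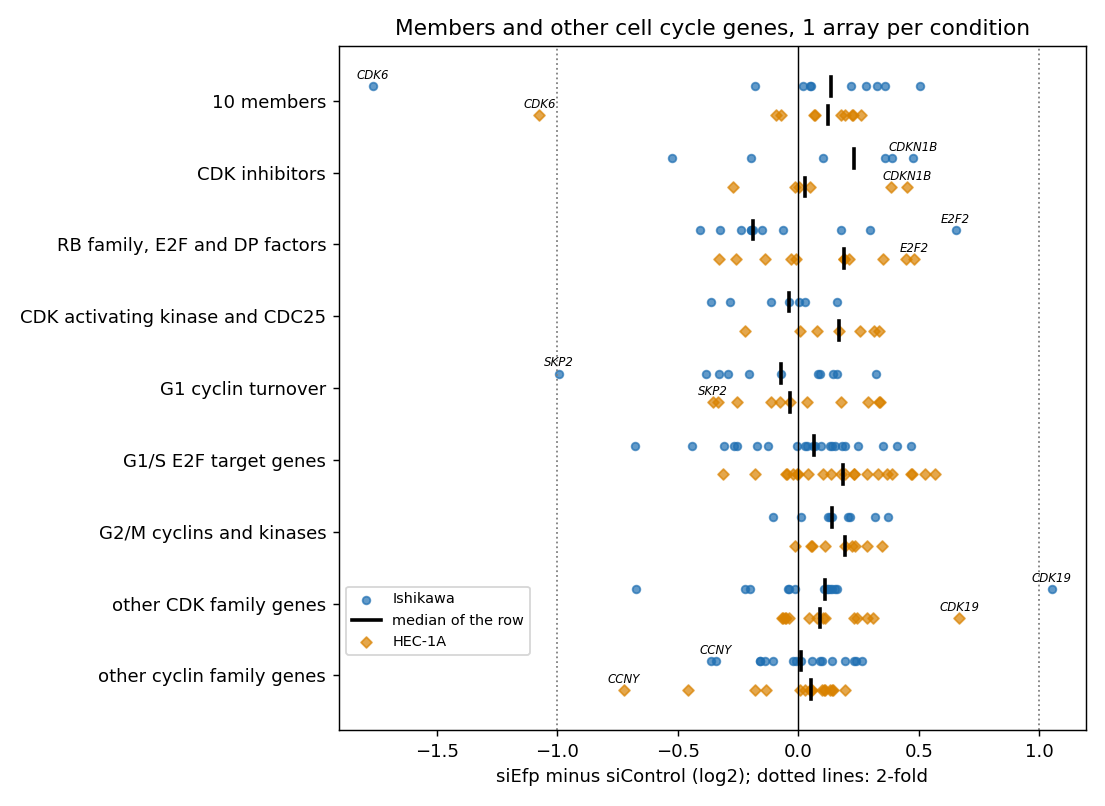
Difference in log2 signal, siEfp minus siControl, in Ishikawa and HEC-1A cells for the genes of each cell cycle list, 1 point per gene, a bar at the median and dotted lines at 2-fold. Only CDK6 and CDK19 lie past a 2-fold difference in a line, and medians lie between -0.19 and 0.23 in Ishikawa and between -0.03 and 0.19 in HEC-1A.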

How the data were processed

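Expression was measured on 4 Affymetrix arrays, 1 for each combination of cell line and siRNA. For every probe set the authors deposited an RMA value on the log2 scale. The submitters' processing notes name Affymetrix Expression Console, but neither its version nor a genome build is given in the sources used here. RMA subtracts background, gives all arrays the same distribution and combines probes, so a shift shared by all genes is removed and differences of dim probe sets are compressed. The study names a human exon array, while the probe sets are annotated as those of a human gene array. The labels do not say whether the arrays came from separate cultures. Signals of different genes were set side by side only for the cell type markers and to mark dim genes against the other genes. Such comparisons describe array signals and do not measure amounts of mRNA. Precision is limited by there being 4 arrays.

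Of 33297 probe sets, 19460 had 1 gene symbol, 1754 had several and 12083 had none. The mean of a gene's 1-symbol probe sets was taken, for 18417 genes in all (769 had several). Each of the 10 genes had 1. RefSeq for GRCh38.p14 held the gene ID of 19429 of these probe sets and changed 0 symbols. Per-array median signals over all probe sets were 5.69 (Ishikawa siEfp), 5.67 (Ishikawa siControl), 5.63 (HEC-1A siEfp) and 5.63 (HEC-1A siControl).

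Differences within a line are siEfp minus siControl, with no test, and were counted at 2-fold. A model with terms for cell line and siRNA was fitted to the 4 arrays with limma 3.58.1 (R 4.3.3), which leaves 1 residual degree of freedom. Genes were called at a Benjamini-Hochberg p under 0.05 adjusted over all genes. A term for a different siEfp effect in each line leaves none, so that difference cannot be tested. Genes named are the 10, TRIM25, SFN, all CDK inhibitors, up to 4 genes at each end of each list, and the 5 most like CDK6. Markers outside this rule are named as a check of the cells. The members and lists were chosen with earlier results of these data known. Promoter windows came from RefSeq. Alternatives were centring, a second quantile normalization, the brightest probe set, leaving out genes below the median signal, a 1.5-fold limit and, for limma, a single term, a trend with intensity and a threshold of 0.1. Other steps used Python 3.11.15, numpy 2.4.6, pandas 2.3.3 and matplotlib 3.10.9.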

Additional observations from a re-analysis of the deposited data

Results flagged for a closer look

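Of 99 measured genes, the 10 and 89 of the cell cycle lists, 13 had siEfp differences of opposite sign in the lines, by at least 0.1 in each. None of the 10 was among them. The share of all genes with such differences was not counted, so these numbers are not read as a trait of the listed genes. The difference between the lines was not tested, since each condition has 1 array, and the values below are the Ishikawa difference minus the HEC-1A difference on the log2 scale.

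Among the CDK inhibitors, CDKN2A had -0.58 and CDKN2D 0.66. Among the E2F and DP factors, E2F3 had -0.39 and TFDP2 -0.50. The activators gave 0.38 for MNAT1, a part of the CDK activating kinase, -0.28 for CDC25B and -0.60 for CDC25C. The targets of E2F at the start of S phase gave -0.54 for MCM7, -0.44 for POLA1 and -0.48 for CDC45. The cyclins gave 0.69 for CCNA1, -0.29 for CCNL2 and -0.30 for CCNT1. CCNA1 had signals of 8.91 with siEfp and 8.68 with siControl in Ishikawa but of 3.85 with siEfp and 4.30 with siControl in HEC-1A, where it was dim.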

How the results depend on the processing

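The CDK6 difference, on which CDK6 was chosen, stayed past 2-fold in both lines after centring and after a second quantile normalization. Taking the brightest probe set could not change it, since CDK6 has 1 probe set. Leaving out dim genes removed CDK6 in HEC-1A and CCND2 in both lines, so it gave no value there. Centring moved the differences of the 10 genes by at most 0.0128 in Ishikawa and 0.0104 in HEC-1A, and a second quantile normalization by at most 0.07 in Ishikawa and 0.02 in HEC-1A, with 0 changes of sign. That normalization turned the line difference of CDK2, -0.00, to 0.0646. At 1.5-fold, 686 genes were lower and 274 higher with siEfp in Ishikawa, and 375 lower and 246 higher in HEC-1A. Without dim genes, 15 were at least 2-fold higher in Ishikawa and 10 in HEC-1A, against 25 and 19 with them. The limma calls of the siEfp effect, 29 lower and 1 higher, depended on the setting: 0 and 0 without the cell line term and after a second quantile normalization, 76 and 9 at an adjusted p under 0.1, 152 and 30 with an intensity trend, and 457 and 158 without dim genes. The cause was not tested. No array could be left out with a test, since this leaves no residual degree of freedom. The cell line term already pairs the siEfp and siControl arrays of a line. The labels give no replicate numbers for any further pairing. Dim signals limit what can be read from a difference, which holds for CDK6 in HEC-1A, with 4.63 in siEfp cells and 5.70 in siControl cells, and for CCND2.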

Other observations

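Genes used after the G1 step also had values in these arrays. Of 9 genes for cyclins and kinases of G2 and mitosis, 7 were higher and 0 lower in the siEfp arrays of both lines, against 31.1% and 26.7% of all genes, with medians of 0.14 in Ishikawa and 0.19 in HEC-1A. AURKA and AURKB, the mitotic Aurora kinases, had 0.37 and 0.32 in Ishikawa and 0.24 and 0.35 in HEC-1A. In the limma fit 0 of the 9 were called, where 0.157% of all genes were called lower and 0.00543% higher. An unadjusted p under 0.05 was found for 2 of the 9, AURKA and AURKB, and for 12.0% of all genes.

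Among 14 measured genes of the rest of the CDK family, CDK19, a kinase of the Mediator complex, had the highest difference. Its log2 signals were 8.37 in Ishikawa siEfp cells and 7.32 in Ishikawa siControl cells, and 8.37 in HEC-1A siEfp cells and 7.71 in HEC-1A siControl cells, so siEfp was higher by 1.05 in Ishikawa and 0.67 in HEC-1A. It was not called by limma (adjusted p = 0.11). CDK5, a kinase known from neurons, was at -0.68 in Ishikawa and -0.04 in HEC-1A. Of 17 measured genes of the rest of the cyclin family, 8 (47.1%) were higher and 3 (17.6%) lower in both lines, against 31.1% and 26.7% of all genes. Among the 17, CCNY, the cyclin Y gene, had the lowest mean difference, with -0.34 in Ishikawa and -0.72 in HEC-1A.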
